A study of Rattus norvegicus with 6 samples.

Results

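The genes of the hypoxia-inducible factor (HIF) pathway were followed in cultured neonatal rat ventricular cardiomyocytes, primary muscle cells of the newborn heart. The group consists of 10 genes taken by symbol from the 34510 genes of the deposited table: the prolyl hydroxylases Egln1, Egln2 and Egln3, the HIF alpha subunits Hif1a and Epas1, the ligase adaptor Vhl, and the target genes Vegfa, Adm, Bnip3 and Ankrd37. All 10 were found, each once. The 3 libraries named Trim28 were compared with the 3 named Bgal. The series' design text states that these myocytes were infected with an adenovirus expressing TRIM28, a chromatin corepressor. The labels leave the name Bgal unexplained, say nothing of a virus given to that group, and state no time, dose, age or strain. Whether each library is a culture of its own is not stated either, so the p-values reflect the spread among these libraries, which may be technical.

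HIF is a transcription factor made of an oxygen-regulated alpha subunit and a stable partner, ARNT. When oxygen and iron are present, EGLN enzymes, which are dioxygenases that need iron and 2-oxoglutarate, hydroxylate prolines of the alpha subunit. VHL then binds the hydroxylated protein and brings it to a ubiquitin ligase for destruction. When hydroxylation fails, the alpha subunit accumulates, enters the nucleus and switches on genes for vessel growth, glycolysis and mitochondrial turnover, and also Egln3 and, in many cells, Egln1 itself. HIF activity is therefore set mainly through protein stability, which RNA sequencing does not measure.

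Poly(A) RNA was sequenced, and values are in FPKM, fragments scaled by gene length and library total. Reads assigned to genes ranged from 26146166 to 28298731 in the Trim28 libraries and from 28574951 to 34593292 in the Bgal libraries. Trim28 itself, the check of the labels, had 2923, 2890 and 980 FPKM in the Trim28 libraries, against 81.6, 87.8 and 77.6 FPKM in the Bgal libraries. Trim28 replicate 3 thus held less of it than the other Trim28 libraries. Of 8 cardiomyocyte markers all 8 were measured, with summed levels of 10247.1 to 10371.3 FPKM in Trim28 and 11974.5 to 13126.9 FPKM in Bgal libraries. Summed levels of 8 fibroblast markers were 667 to 715 FPKM in Trim28 and 364 to 386 FPKM in Bgal libraries. Those of 8 smooth muscle and mural markers were 1416 to 1522 FPKM in Trim28 and 667 to 871 FPKM in Bgal libraries. Acta2 made up most of this sum, with a mean of 1342 FPKM in Trim28 and 692 FPKM in Bgal libraries. The 7 measured leukocyte and macrophage markers summed to 64.2 to 65.7 FPKM in Trim28 and 27.1 to 27.5 FPKM in Bgal libraries. The 7 measured endothelial markers summed to 11.6 to 12.9 FPKM in Trim28 and 12.7 to 13.3 FPKM in Bgal libraries, which overlap. No measured marker of these lists was at 0 in every library. In such bulk samples, fewer cells of a type and less RNA per cell cannot be told apart.

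Of the 10 genes, 7 passed the test, limma on log2(FPKM + 1) with a Benjamini-Hochberg adjusted p under 0.05 over 14808 tested genes. Egln1, Egln3, Epas1 and Adm rose, and Hif1a, Vegfa and Bnip3 fell. Egln2, Vhl and Ankrd37 did not pass. All 10 genes passed the filter on low values, at least 0.5 FPKM in at least 3 libraries. The share called was 70%, against 41.2% of all tested genes, of which 20.1% were higher and 21.1% lower. With so many genes called, the count says little by itself, and the sizes of the changes carry the description. The values of Egln1, Egln3, Hif1a, Epas1, Vegfa, Adm and Bnip3 did not overlap between the groups, a pattern that 53.8% of the tested genes share.

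**Figure D1:**
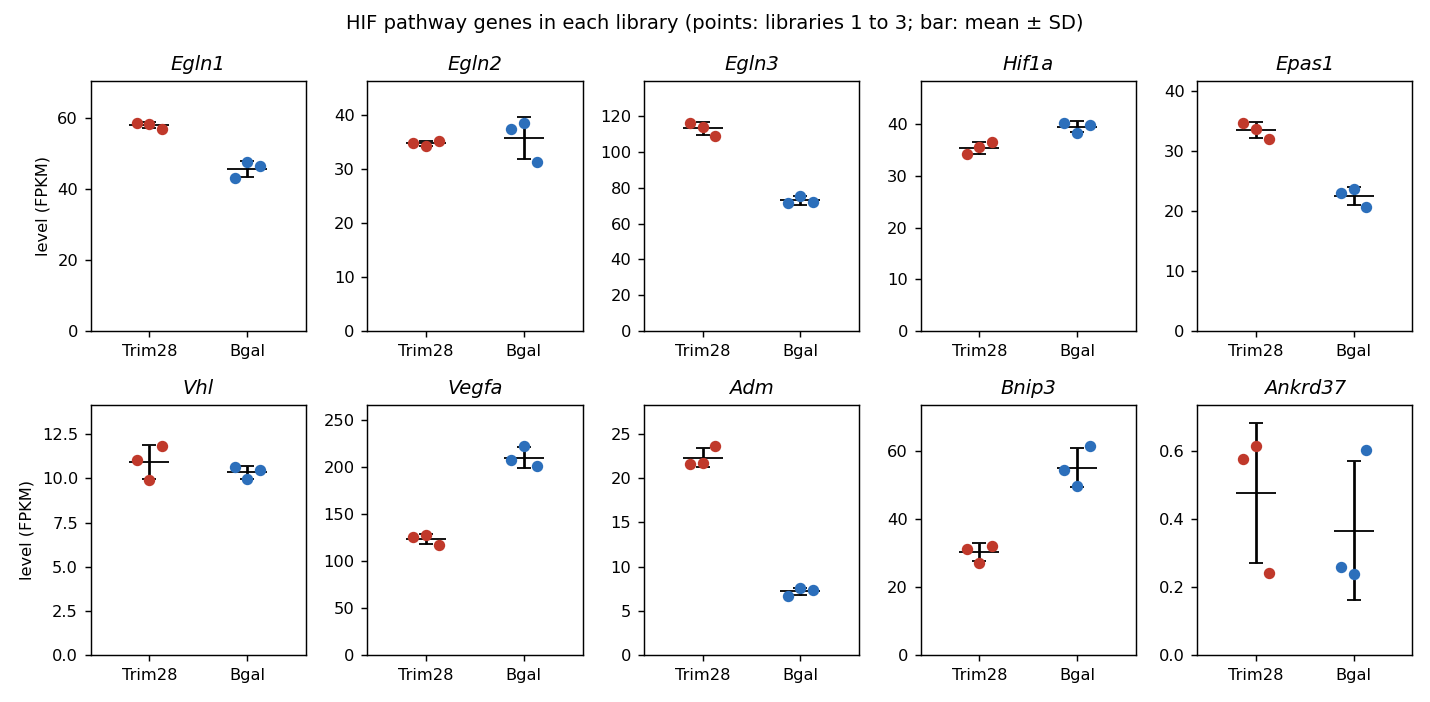
Level in FPKM (vertical axes, each from 0) of the 10 HIF pathway genes in the 3 Trim28 and the 3 Bgal libraries. Points are libraries and bars are mean ± SD. The points of Egln2, Vhl and Ankrd37 overlap between the groups, and those of the other 7 genes do not.

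**Figure D2:**
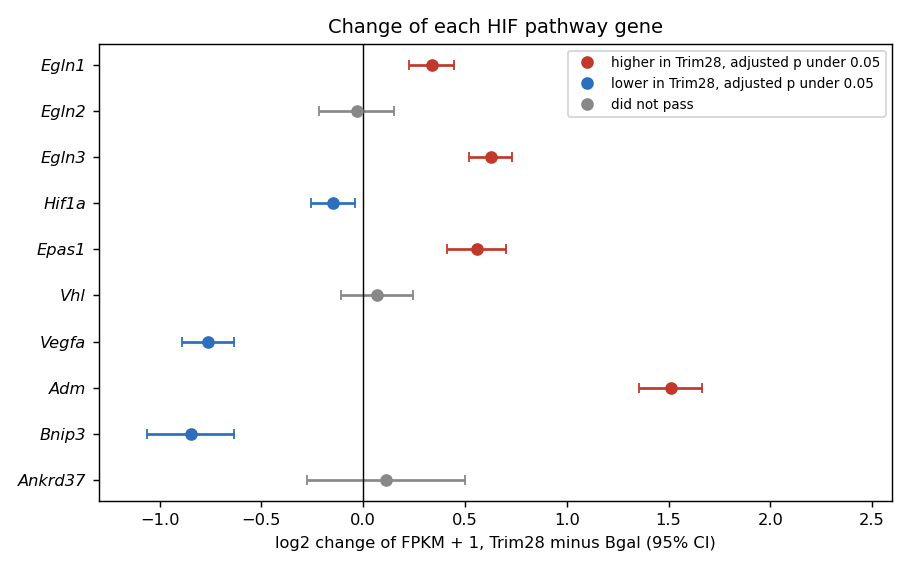
Log2 change of FPKM + 1 (horizontal axis, Trim28 minus Bgal) of each gene, with its 95% confidence interval from limma. Adm lies farthest to the right at 1.51 and Bnip3 farthest to the left at -0.85, while the intervals of Egln2, Vhl and Ankrd37 include 0.

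The oxygen sensors did not move together. Egln3 (ENSRNOG00000005053, chromosome 6, 75050329 to 75075795, minus strand), the hydroxylase that is itself a classical HIF target, had 116, 114 and 109 FPKM in the Trim28 libraries, against 71.3, 75.5 and 71.8 FPKM in the Bgal libraries. Every Trim28 library lay above every Bgal library. Its mean was 113 ± 3.74 FPKM in Trim28 and 72.9 ± 2.31 FPKM in Bgal libraries (SD, n = 3 each), 1.55-fold higher, with a log2 change of 0.63 (SE 0.04, limma adjusted p = 0.000109).

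Egln1 (ENSRNOG00000019773, chromosome 19, 57662278 to 57699113, minus strand) encodes PHD2, the main oxygen sensor of most cells. It had 58.7, 58.2 and 57.0 FPKM in the Trim28 libraries, against 43.2, 47.5 and 46.4 FPKM in the Bgal libraries. The groups did not overlap, and the Trim28 libraries lay closer together, with a coefficient of variation of 1.49%, against 4.83% in Bgal libraries. The rise was 1.27-fold, with a log2 change of 0.34 (SE 0.05, limma adjusted p = 0.0015). The deposited table gives this gene a length of 669 bases and describes its protein entry as a fragment, so its level relative to the other hydroxylases rests on an incomplete gene model.

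Egln2 (ENSRNOG00000020947, chromosome 1, 83969457 to 83977236, minus strand) encodes PHD1, another HIF prolyl hydroxylase. It had 34.7, 34.2 and 35.2 FPKM in the Trim28 libraries, against 37.3, 38.5 and 31.2 FPKM in the Bgal libraries. The lowest Bgal library lay below all Trim28 libraries and the other Bgal libraries lay above them. Its log2 difference was -0.03 (95% confidence interval -0.22 to 0.15, limma adjusted p = 0.772). Its model overlaps 103 bases of Cyp2t1 on the other strand, and the sources used here do not state whether counting used strand.

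The make-up of the hydroxylase transcripts differed accordingly. Egln3 made up 55.4%, 55.2% and 54.1% of the summed Egln FPKM in the Trim28 libraries, against 47.0%, 46.7% and 48.1% in the Bgal libraries. It was the most abundant of the 3 hydroxylase transcripts per length in every library. The share of Egln2 was 16.9% ± 0.541 in Trim28 and 23.1% ± 1.95 in Bgal libraries, and that of Egln1 28.2% ± 0.177 in Trim28 and 29.6% ± 1.30 in Bgal libraries (SD, n = 3 each). Groups did not overlap for any of these shares, and each exact permutation test gave p = 0.1, the smallest that 3 against 3 libraries allows. The 3 shares are parts of the same sum, so these tests are not independent. A lower share of Egln2 can follow from the rise of the others, as its own level did not pass. The shares also rest on the short model of Egln1. The sum of the 3 transcripts was 206 ± 4.29 FPKM in Trim28 and 154 ± 6.45 FPKM in Bgal libraries (exact permutation p = 0.1).

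The alpha subunits moved apart. Epas1 (ENSRNOG00000021318, chromosome 6, 10306405 to 10387265, plus strand) encodes HIF-2 alpha, the form known from endothelium and interstitial cells. It had 34.7, 33.7 and 32.1 FPKM in the Trim28 libraries, against 23.0, 23.7 and 20.8 FPKM in the Bgal libraries. The groups did not overlap, and within Trim28 the library with the least Trim28 RNA, replicate 3, was also the lowest for Epas1. Epas1 was 1.49-fold higher, with a log2 change of 0.56 (SE 0.06, limma adjusted p = 0.000579). Beside this rise, the summed endothelial markers overlapped between the groups, a sum of which Kdr made up the largest part. Of 3 tested endothelial markers Tek rose and Kdr fell. Of 8 fibroblast markers 6 rose and 0 fell, of 8 mural markers 6 rose and 1, Abcc9, fell 1.97-fold, and of 6 tested leukocyte markers 6 rose, against 20.1% of all tested genes that rose. The mural marker Kcnj8 and the leukocyte marker Adgre1 reached the filter in Trim28 libraries and in no Bgal library, so they had to differ. The part of these other cells in the result was not tested.

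Hif1a (ENSRNOG00000008292, chromosome 6, 96810907 to 96856052, plus strand), the gene of the broadly expressed HIF-1 alpha, had 34.3, 35.5 and 36.6 FPKM in the Trim28 libraries, against 40.3, 38.3 and 39.8 FPKM in the Bgal libraries. The gap between the highest Trim28 and the lowest Bgal library was small. Its log2 change was -0.15 (SE 0.05, 95% confidence interval -0.26 to -0.04, limma adjusted p = 0.0346). This call was lost without the intensity trend (limma adjusted p = 0.0777) and without Bgal replicate 1 (0.108), Bgal replicate 3 (0.079), Trim28 replicate 1 (0.123) or Trim28 replicate 2 (0.0864), within a range of 0.0324 to 0.123 over the fits run.

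The ratio of Hif1a to Epas1 FPKM was 0.987, 1.05 and 1.14 in the Trim28 libraries, against 1.75, 1.62 and 1.92 in the Bgal libraries. Hif1a thus stood near the level of Epas1 in the Trim28 libraries and above it in the Bgal libraries. The log2 ratio was 0.08 ± 0.10 in Trim28 and 0.81 ± 0.12 in Bgal libraries (SD, n = 3 each), and the exact permutation p was 0.1, again the smallest possible.

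**Figure D3:**
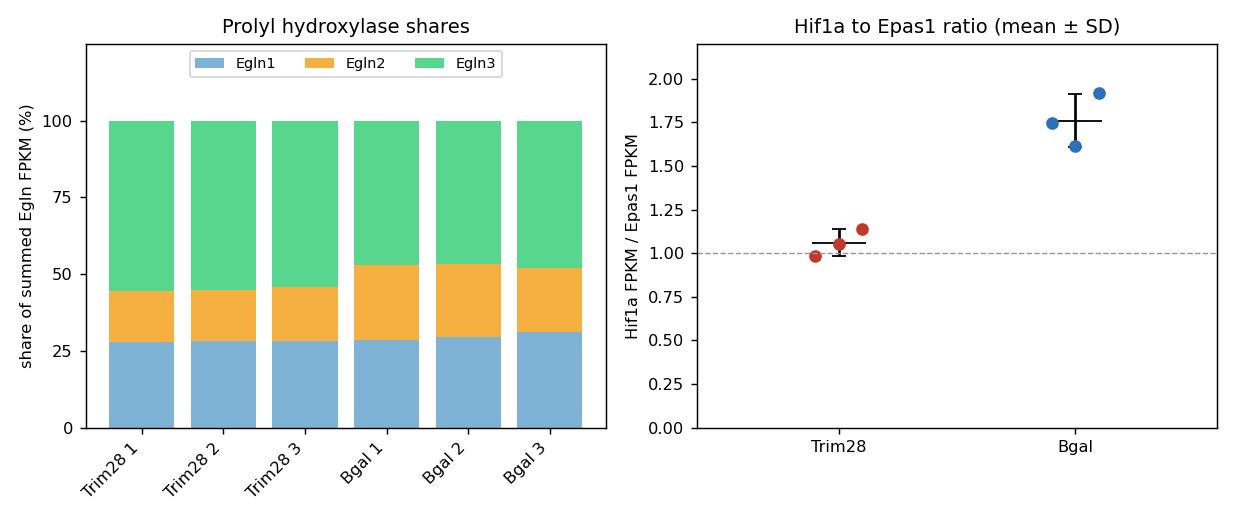
Left, share of Egln1, Egln2 and Egln3 in their summed FPKM (percent, vertical axis) in each library. Right, ratio of Hif1a to Epas1 FPKM per library, with mean ± SD and a dashed line at equal levels. Egln3 takes 54.1% to 55.4% in Trim28 and 46.7% to 48.1% in Bgal libraries, and the ratio is 0.987 to 1.14 in Trim28 and 1.62 to 1.92 in Bgal libraries.

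Vhl (ENSRNOG00000010258, chromosome 4, 145580799 to 145587845, plus strand), which recognises hydroxylated HIF alpha, had 11.1, 9.90 and 11.8 FPKM in the Trim28 libraries, against 10.6, 9.95 and 10.5 FPKM in the Bgal libraries. The groups overlapped. The log2 difference was 0.07 (95% confidence interval -0.11 to 0.25, limma adjusted p = 0.501), so changes within that interval could not be told from 0.

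The 4 targets did not share a direction. Adm (ENSRNOG00000027030, chromosome 1, 175445088 to 175447259, plus strand) encodes adrenomedullin, a vasodilator peptide that heart cells and fibroblasts release under hypoxia and stretch. It had 21.7, 21.8 and 23.6 FPKM in the Trim28 libraries, against 6.71, 7.55 and 7.32 FPKM in the Bgal libraries. Every Trim28 library was far above the Bgal libraries, and replicate 3, with the least Trim28 RNA, was the highest. Adm was 3.11-fold higher, with a log2 change of 1.51 (SE 0.07, limma adjusted p = 2.16e-05), and 0.608% of all tested genes changed by more on this scale. Between 793 and 940 reads lay behind each Trim28 value and between 304 and 349 behind each Bgal value. The summed fibroblast, mural and leukocyte markers given above were higher in the same libraries, and their part in the rise of Adm was not tested.

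Vegfa (ENSRNOG00000019598, chromosome 9, 17340341 to 17355681, plus strand), the main growth factor of blood vessels, was the most abundant of the 10 genes per length in both groups. It had 126, 127 and 117 FPKM in the Trim28 libraries, against 207, 222 and 201 FPKM in the Bgal libraries. The groups were well apart. Vegfa was 1.70-fold lower, with a log2 change of -0.76 (SE 0.05, limma adjusted p = 0.000111).

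Bnip3 (ENSRNOG00000017243, chromosome 1, 211248098 to 211265282, minus strand) encodes a mitochondrial outer membrane protein that recruits the autophagy machinery and can promote death of heart muscle cells. It had 31.3, 27.1 and 32.2 FPKM in the Trim28 libraries, against 54.3, 49.8 and 61.4 FPKM in the Bgal libraries. The highest Trim28 library lay far below the lowest Bgal library. Bnip3 was 1.83-fold lower, with a log2 change of -0.85 (SE 0.09, limma adjusted p = 0.000509). Of 8 cardiomyocyte markers 4 fell and 2 rose in the same libraries, against 21.1% of all tested genes lower and 20.1% higher. The part of these markers in the fall of Bnip3 was not tested.

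Ankrd37 (ENSRNOG00000031335, chromosome 16, 49462889 to 49465888, plus strand), an ankyrin repeat gene that human cells induce under hypoxia, was close to the limit of detection. It had 0.575, 0.612 and 0.240 FPKM in the Trim28 libraries, against 0.258, 0.237 and 0.601 FPKM in the Bgal libraries. These values rest on 14, 14 and 6 reads in the Trim28 libraries and 8, 6 and 18 reads in the Bgal libraries. The libraries did not sort by group (log2 difference 0.11, 95% confidence interval -0.28 to 0.50, limma adjusted p = 0.619). A difference was not detectable at this depth, and the log2(FPKM + 1) scale understates changes at such levels.

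Ranked per length, Vegfa and Egln3 came first and second in both groups. In the Trim28 libraries, Egln1 followed, then Hif1a, Egln2, Epas1 and Bnip3 with overlapping neighbours between 27.1 and 36.6 FPKM, then Adm, Vhl and Ankrd37. In the Bgal libraries the order was Bnip3, Egln1, Hif1a, Egln2, Epas1, Vhl, Adm and Ankrd37, and among these only Hif1a and Egln2 overlapped. Bnip3 had rank 7 in Trim28 and rank 3 in Bgal libraries.

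The proximal promoters of these genes were read for the HIF binding core. RefSeq windows on build GRCr8, reaching from 250 bases before to 50 bases after the annotated start, were matched by symbol for all 10 genes, with a second window for Vegfa. The core letters ACGTG and GCGTG were searched on both strands, where the palindrome CACGTG counts on each. At least 1 match was present in the windows of 4 of the 10 genes, Egln1, Hif1a, Bnip3 and Ankrd37. That is near the 41.6% of all 33469 windows and below the 60.8% of the 10455 windows of tested genes, to which all 10 belong. These percentages count windows and not genes, and the 10 genes have 11 windows. The difference was not tested. Windows of Egln2, Egln3, Epas1, Vhl, Vegfa and Adm held none. The window of Epas1 lies on the minus strand of GRCr8, while the deposited coordinates place this gene on the plus strand. Of the genes with matches, Egln1 and Bnip3 changed in opposite directions. The 4 windows below are those of Egln1, which rose, Bnip3, which fell, Ankrd37, with the most matches and no detectable change, and Adm, which rose the most and holds no match. Each runs 5′ to 3′ along the gene's own strand, with matches in capitals. They lie at chr19:69804632-69804931 (minus strand, Egln1), chr1:203154913-203155212 (minus strand, Bnip3), chr16:53001257-53001556 (plus strand, Ankrd37) and chr1:174179950-174180249 (plus strand, Adm).
Egln1: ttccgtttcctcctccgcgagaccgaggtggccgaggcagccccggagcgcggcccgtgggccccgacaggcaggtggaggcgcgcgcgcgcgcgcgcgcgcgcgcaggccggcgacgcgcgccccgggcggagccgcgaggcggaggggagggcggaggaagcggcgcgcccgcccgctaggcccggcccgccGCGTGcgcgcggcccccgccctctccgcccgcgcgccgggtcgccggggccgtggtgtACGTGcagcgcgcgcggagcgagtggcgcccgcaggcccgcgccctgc
Bnip3: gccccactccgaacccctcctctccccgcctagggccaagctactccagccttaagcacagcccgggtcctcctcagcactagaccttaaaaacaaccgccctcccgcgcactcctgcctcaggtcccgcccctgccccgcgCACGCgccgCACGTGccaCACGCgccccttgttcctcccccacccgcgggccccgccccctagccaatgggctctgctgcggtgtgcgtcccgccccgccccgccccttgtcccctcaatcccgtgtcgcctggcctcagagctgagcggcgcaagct
Ankrd37: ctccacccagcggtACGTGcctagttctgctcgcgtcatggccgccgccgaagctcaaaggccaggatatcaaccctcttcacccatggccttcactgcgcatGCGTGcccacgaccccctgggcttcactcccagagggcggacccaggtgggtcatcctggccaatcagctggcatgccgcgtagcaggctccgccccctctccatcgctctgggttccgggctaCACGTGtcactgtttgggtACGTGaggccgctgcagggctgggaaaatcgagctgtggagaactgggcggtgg
Adm: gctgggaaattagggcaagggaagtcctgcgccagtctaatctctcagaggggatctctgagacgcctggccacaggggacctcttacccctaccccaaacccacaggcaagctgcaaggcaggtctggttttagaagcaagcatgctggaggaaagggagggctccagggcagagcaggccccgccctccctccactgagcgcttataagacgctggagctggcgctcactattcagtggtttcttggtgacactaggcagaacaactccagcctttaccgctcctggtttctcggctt
In Bnip3 the matches cluster within 23 bases, around a palindromic CACGTG whose first base lies 99 bases before the start. In Egln1 an ACGTG begins at base 3 after the start and a GCGTG 56 bases before it. A match in such a window is a description of letters and not evidence of binding, and elements outside the window were not searched.

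Other genes of the pathway were taken in 7 lists. Of the 111 listed genes in the table, 108 were tested, of which 34 rose, 32 fell and 42 did not pass, with a median log2 change of 0.03, against -0.02 over all tested genes. The share called was 61.1%, against the 41.2% of all tested genes.

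Partners and regulators of HIF were mixed. Of 5 tested, 2 rose and 1 fell (median log2 change 0.17), against 20.1% of all tested genes higher and 21.1% lower. Arnt, the obligate partner of both alpha subunits, had 24.6 ± 1.46 FPKM in Trim28 and 24.2 ± 1.38 FPKM in Bgal libraries and did not pass (limma adjusted p = 0.765). It was chosen after its values were seen. Hif1an, the asparagine hydroxylase FIH that blocks coactivator binding, was 1.31-fold lower (limma adjusted p = 0.00185). Arnt2, a relative of Arnt known from neurons, was at 1.81 ± 0.176 FPKM in Trim28 and 0.989 ± 0.178 FPKM in Bgal libraries, and the coactivator gene Crebbp was 1.18-fold higher (limma adjusted p = 0.0113 and 0.0236). The count of genes that rose was 1 without Bgal replicate 1, without Bgal replicate 3, without Trim28 replicate 2 and with the filter at 2 FPKM.

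The list around the VHL ligase was split. Of 8 tested genes, 4 rose and 3 fell (median log2 change 0.19), against 20.1% of all tested genes higher and 21.1% lower. The 4 that rose, Nedd8, Siah1, Siah2 and Os9, are not subunits of the ligase, while the 3 that fell are: Cul2, its scaffold, was 1.35-fold lower, Eloc, which binds VHL, 1.34-fold lower, and Rbx1, its RING subunit, 1.14-fold lower (limma adjusted p = 0.00103, 0.00998 and 0.0224). Elob, the partner of Eloc, did not pass (limma adjusted p = 0.486). Siah1, a ubiquitin ligase that acts on EGLN enzymes, was 1.25-fold higher (limma adjusted p = 0.0142). The count of genes that rose was 2 without the intensity trend, without Bgal replicate 1 and without Bgal replicate 3, and 1 without Trim28 replicate 1 and without Trim28 replicate 2. The count of genes that fell was 2, with Rbx1 lost, in limma-voom on recovered reads, without the intensity trend and without each Trim28 replicate in turn. Elob, Nedd8, Siah2 and Os9 were chosen after their values were seen.

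Ligands and receptors around Vegfa and Adm rose more often than they fell, with 8 of 15 tested genes higher and 2 lower (median log2 change 0.47), against 20.1% of all tested genes higher and 21.1% lower. The part of the fibroblast, mural and leukocyte markers, whose sums were higher in the same libraries, was not tested. The 2 that fell were Vegfb and Kdr. Vegfb, a close relative of Vegfa, had 46.7 ± 1.88 FPKM in Trim28 and 72.7 ± 4.23 FPKM in Bgal libraries, and Kdr, the main VEGF receptor, 6.06 ± 0.276 FPKM in Trim28 and 8.07 ± 0.642 FPKM in Bgal libraries. The other VEGF receptors on the list, Flt1 and Flt4, rose. Flt1 had 2.48 ± 0.264 FPKM in Trim28 and 0.888 ± 0.177 FPKM in Bgal libraries (limma adjusted p = 0.0011). Flt4 had 3.40 ± 0.599 FPKM in Trim28 and 2.18 ± 0.492 FPKM in Bgal libraries (limma adjusted p = 0.0424). Vegfd, a ligand of lymphatic vessels, was 1.85-fold higher and Nrp2, a coreceptor, 2.11-fold higher. Ramp3, which turns the receptor Calcrl into an adrenomedullin receptor, had 11.9 ± 1.35 FPKM in Trim28 and 4.94 ± 0.824 FPKM in Bgal libraries, 2.41-fold higher. Calcrl itself had 2.13 ± 0.215 FPKM in Trim28 and 1.25 ± 0.195 FPKM in Bgal libraries. The limma adjusted p was 0.0127 for Calcrl and 0.000503 for Ramp3. The other partners of Calcrl did not pass, with Ramp2 at 0.930 ± 0.166 FPKM in Trim28 and 0.530 ± 0.181 FPKM in Bgal libraries (limma adjusted p = 0.0803) and Ramp1 at 3.70 ± 0.438 FPKM in Trim28 and 3.33 ± 0.545 FPKM in Bgal libraries (limma adjusted p = 0.464). Adm2, a related peptide, did not pass either (limma adjusted p = 0.894). Kdr, Flt1, Flt4, Calcrl, Ramp1, Ramp2 and Adm2 were chosen after their values were seen.

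The mitophagy list, the pathway in which Bnip3 acts, fell in part. Of 9 tested genes 5 fell and 0 rose (median log2 change -0.28), against 21.1% of all tested genes that fell. Pink1, the kinase that marks damaged mitochondria, had 72.0 ± 0.0939 FPKM in Trim28 and 99.4 ± 2.04 FPKM in Bgal libraries. Phb2, a receptor of the inner membrane, was 1.25-fold lower, and Map1lc3b and Gabarapl1, which coat autophagosomes, 1.22-fold and 1.30-fold lower. Bnip3l, the closest relative of Bnip3 and also a HIF target, had 21.2 ± 1.85 FPKM in Trim28 and 19.4 ± 1.14 FPKM in Bgal libraries and did not pass (limma adjusted p = 0.255). It was chosen after its values were seen.

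Glycolysis and pH genes, many of which HIF-1 is known to induce, fell more often than they rose. Of 25 tested, 11 were lower and 3 higher (median log2 change -0.16), against 21.1% of all tested genes lower and 20.1% higher. Of 8 cardiomyocyte markers 4 fell and 2 rose in the same libraries, and their part in these falls was not tested. Slc2a1, the glucose transporter GLUT1, had 41.5 ± 1.42 FPKM in Trim28 and 63.0 ± 3.03 FPKM in Bgal libraries. Pfkm, the muscle phosphofructokinase, was 1.49-fold lower. Slc16a3, the lactate exporter MCT4, went the other way, with 37.2 ± 0.898 FPKM in Trim28 and 16.6 ± 0.368 FPKM in Bgal libraries, 2.25-fold higher (limma adjusted p = 1.75e-05). Tpi1 was 2.13-fold lower at 7.66 ± 0.872 FPKM in Trim28 libraries, and it is uncertain because near-identical copies of this gene can share its reads. In limma-voom on recovered reads, 5 genes of this list rose.

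Of 24 other tested genes known to be induced by hypoxia, 9 rose and 6 fell (median log2 change 0.16). Among all tested genes, 20.1% were higher and 21.1% lower. Angptl4, a lipase inhibitor, had 7.07 ± 1.04 FPKM in Trim28 and 1.53 ± 0.375 FPKM in Bgal libraries, 4.63-fold higher, and Lox, a collagen crosslinking enzyme, was 2.50-fold higher. Ppp1r3c, a regulator of glycogen synthesis, was 2.16-fold lower and Higd1a, a mitochondrial protein, 1.48-fold lower. Limma adjusted p of these 4 genes ranged from 6.94e-05 to 0.000191. In the same libraries 6 of 8 fibroblast markers rose and 0 fell, and their part in the rise of Lox was not tested.

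Other enzymes of the dioxygenase family, which like EGLN use iron and 2-oxoglutarate, numbered 22. Of these, 8 rose and 4 fell (median log2 change 0.10), against 20.1% of all tested genes higher and 21.1% lower. All 6 collagen hydroxylases on the list rose, by 1.44-fold to 2.46-fold, a subset set apart after its values were seen. Plod2, a lysyl hydroxylase of collagen and a HIF target, had 64.9 ± 1.92 FPKM in Trim28 and 26.4 ± 1.10 FPKM in Bgal libraries. P4ha1 and P4ha2, prolyl hydroxylases of collagen, were 1.61-fold and 1.68-fold higher, and Plod1 1.55-fold higher. P4htm, the membrane-bound prolyl hydroxylase that can act on HIF alpha in cell assays, had 36.1 ± 1.92 FPKM in Trim28 and 23.2 ± 1.89 FPKM in Bgal libraries (limma adjusted p = 0.000606) and was chosen after its values were seen. Of 8 fibroblast markers 6 rose and 0 fell in the same libraries, and their part in the rise of the collagen enzymes was not tested.

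**Figure D4:**
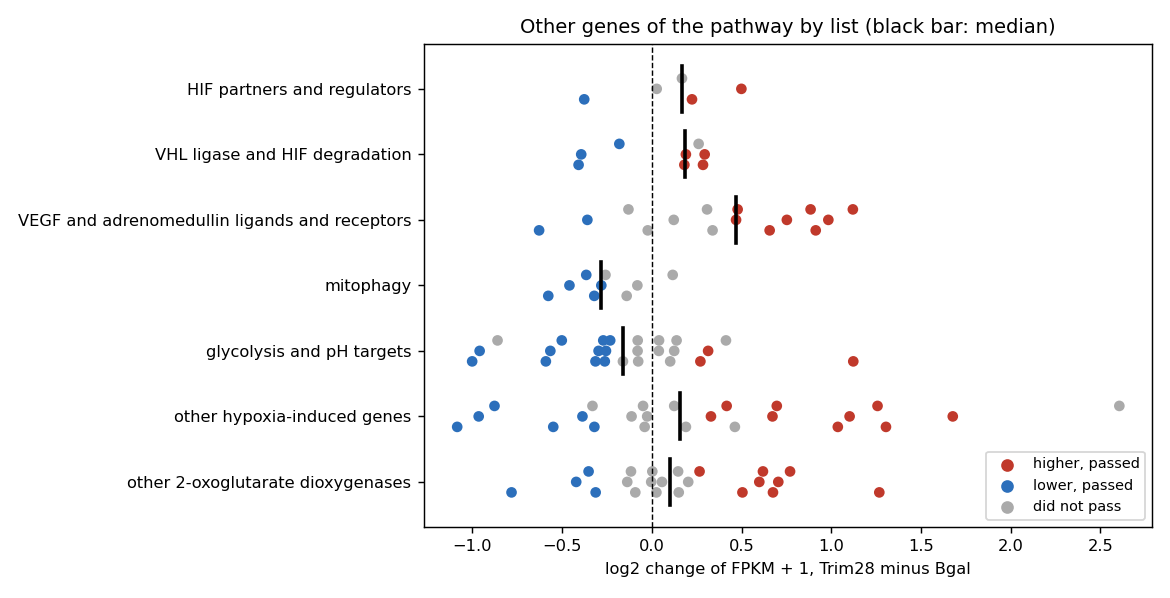
Log2 change of FPKM + 1 (horizontal axis, Trim28 minus Bgal) of the 108 tested genes of 7 pathway lists. Each point is 1 gene, coloured by whether it passed an adjusted p of 0.05 in limma, and the black bar is the list median. Medians run from -0.28 for mitophagy to 0.47 for the VEGF and adrenomedullin list.

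For the members that changed by more than 0.5 on the log2 scale, the genes with the most similar profile were sought by the root mean square distance between centred log2(FPKM + 1) values over the 6 libraries, among 11689 genes. With 2 groups of 3, this distance reflects mainly the size of the group difference. Nearest to Adm were Olr1, Fgfr2 and Pdgfra, at distances of 0.065, 0.083 and 0.093. Pdgfra is among the fibroblast markers summed above. Nearest to Egln3 were Tab2, Srsf9 and Kirrel1 (0.024 to 0.027), and nearest to Epas1 were Rhpn1, Id1 and Ncln (0.028 to 0.030). Rhpn1 was low, at 1.22 ± 0.105 FPKM in Trim28 and 0.498 ± 0.104 FPKM in Bgal libraries, where this scale understates changes. Vegfa was closest to Tex9, Plagl1 and Meak7 (0.040 to 0.047). Bnip3 was closest to Asb15, a muscle gene, and to the mitochondrially encoded ND1 and COX2 (0.061 to 0.076), which are subunits of respiratory complexes I and IV. ND1 had 3712 ± 142 FPKM in Trim28 and 6679 ± 554 FPKM in Bgal libraries.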

How the data were processed

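Gene expression was measured in 3 Trim28 and 3 Bgal libraries, grouped by their titles. The authors deposited 1 table of FPKM values per gene, per the file headers, with coordinates, gene lengths and Ensembl rat identifiers. The submitters' processing notes name the aligner HISAT2 (2.0.5) and DESeq2. For the counter, its strand setting, the build and the annotation, the sources used here give nothing. FPKM times length was a whole multiple of 1 step for 100% of values above 0 (within 0.01 of a whole number), which gave reads per gene. FPKM is relative, so a gene taking many reads lowers all others.

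The 14808 genes that reached 0.5 FPKM in 3 or more libraries were compared on log2(FPKM + 1) in limma 3.58.1 (R 4.3.3), using an intensity trend and Benjamini-Hochberg adjustment over all tested genes, two-sided. Fold changes on the log2 scale understate changes of low genes, while folds are ratios of mean FPKM. Shares and ratios were compared by exact permutation over libraries. Within each group, replicates were farther apart than counting error allows (chi-square per degree of freedom 5.77 to 17.4).

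The members and lists were chosen with earlier results of these data known. Named genes were all members, up to 4 genes of each list with the smallest p among those past the threshold, and for members beyond 0.5 in log2 change the 3 nearest profiles. Trim28 was named as the check of the labels. Other genes of the lists named outside this rule are marked in the text as chosen after their values were seen. Single cell type markers were also named after their values were seen. Alternatives were a pseudocount of 0.1, no filter, a filter at 2 FPKM, median-ratio scaling, limma-voom on the recovered reads, no trend, a replicate block, and leaving out each library.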

Additional observations from a re-analysis of the deposited data

How the results depend on the processing

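Egln1, Egln3, Epas1, Adm, Vegfa and Bnip3 kept their direction and passed in every fit run. The fall of Hif1a did not: its log2 change of -0.15 had a limma adjusted p of 0.0777 without the intensity trend and 0.063 with a replicate block, and leaving out 1 library gave -0.17 to -0.13 with adjusted p of 0.0371 to 0.123. Egln2, which did not pass, ranged from -0.12 to 0.025 on leaving out 1 library, so its sign is not settled. Same-numbered libraries did not deviate together (correlations of -0.0164, 0.134 and 0.00915), so the numbers were not taken as pairs, and the replicate block kept 4 members higher and gave 2 lower, and 2 genes of the VHL ligase list higher. Leaving out 1 library gave 4 members higher and 2 to 3 lower, 28 to 35 list genes higher and 29 to 33 lower, and 2249 to 2645 of all genes higher and 2402 to 2928 lower. On leaving out 1 library, the share of Egln3 differed by 7.42 to 8.08 percentage points, that of Egln2 by -7.32 to -5.47, that of Egln1 by -2.05 to -0.77, and the log2 ratio of Hif1a to Epas1 by -0.79 to -0.67, all Trim28 minus Bgal. No scaling moved the median of all genes by more than 0.1 on the log2 scale. Ankrd37, with 6 to 18 reads a library, is limited by depth, and it fell under the filter in 3 of the 6 fits that left out a library and at 2 FPKM.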

Other observations

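The chromatin enzymes among the 2-oxoglutarate dioxygenases, which share their iron-dependent chemistry with the EGLN enzymes, did not rise. Of 11 tested histone demethylases and TET enzymes 4 fell and 0 rose, against 21.1% of all tested genes that fell and 20.1% that rose. Tet1, which oxidises methylated cytosine, had 1.13 ± 0.199 FPKM in Trim28 and 2.65 ± 0.151 FPKM in Bgal libraries (SD, n = 3 each, limma adjusted p = 0.00135), and Tet2 had 10.6 ± 0.681 FPKM in Trim28 and 14.6 ± 1.03 FPKM in Bgal libraries (limma adjusted p = 0.0036). The histone demethylase genes Kdm4a and Kdm5c also fell, to 18.1 ± 0.231 and 28.9 ± 0.531 FPKM in Trim28 libraries, against 23.4 ± 0.342 and 36.2 ± 1.29 FPKM in Bgal libraries. Kdm3a, a demethylase and a known HIF target, had 10.1 ± 0.390 FPKM in Trim28 and 9.88 ± 0.400 FPKM in Bgal libraries and did not pass (limma adjusted p = 0.774). These genes were chosen after their values were seen.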
